A study of Arabidopsis thaliana with 36 samples.

Results

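The 32 transcripts described here come from nuclear genes of Arabidopsis thaliana whose products are built into the photosynthetic electron transport chain of the chloroplast. They were chosen by gene name, as listed nuclear genes of photosystem I, photosystem II and the cytochrome b6f complex with plastocyanin. The listed genes of ferredoxin, ferredoxin-NADP reductase and the plastid ATP synthase complete the set. The rule used no measured value, but earlier results of these data were known when the genes were chosen. They make up 32 of the 33602 genes in the count table: 12 of photosystem I, 11 of photosystem II, 6 of electron carriers and 3 of the ATP synthase. All 32 passed the filter on low counts, which left 20263 genes for testing.

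Photosystem II takes electrons from water at an oxygen-evolving centre held by extrinsic proteins, and passes them through the cytochrome b6f complex and plastocyanin to photosystem I. Photosystem I reduces ferredoxin, from which ferredoxin-NADP reductase makes NADPH, while the proton gradient built on the way drives the ATP synthase. The reaction centre proteins themselves are mostly encoded in the plastid genome, so that the nuclear genes supply the peripheral, extrinsic and small subunits and the soluble carriers. In leaves these transcripts are among the most abundant of the nucleus and are known to be regulated together by light and by signals from the plastid.

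The rosettes came from 2 accessions, the reference accession Col-0, which the labels rank as intermediate in freezing tolerance, and N14, which they rank as cold tolerant. No transgene or mutant was involved. Control plants were sampled after 28 days (C28) or 35 days (C35) of growth, the last part of it under 200 µE of light and 16 h days. Primed plants (C28P3) had then spent 3 days at 4 °C under 90 µE, and plants of the lag group (C28P3L7) a further 7 days back at 20 °C. Triggered plants (C28P3L7T3) were given a second 3 days at 4 °C after that lag, and the C35P3 plants met cold for the first time after 35 days, also for 3 days. Each of these 12 groups holds 3 libraries, from 3 independent experiments, and each library is RNA of 5 pooled replicate samples, which held more rosettes in the C28 and C28P3 groups than in the others. Light and temperature changed together in the cold, and cold-treated plants were 3 days older than their controls, so these cannot be told apart. Lag plants were likewise 3 days older than C35 plants, and triggered plants 3 days older than C35P3 plants.

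Total counts per library ran from 17861514 to 31046237. All 32 transcripts were lowest in replicate 1 of the primed libraries in both accessions, and 32 in Col-0 and 31 in N14 were highest in replicate 3. In the N14 C28 group 27 of the 32 were highest in replicate 1. Calls that rest on such a library are given with their values without it. As a check of the tissue, 3 leaf mesophyll markers (RBCS1A, RCA and CAB1) were summed as CPM, counts per 1000000 reads counted. For the tissue markers CPM were not scaled further, unlike the CPM of the 32 transcripts. The sum was between 52700 and 71200 CPM in the 18 libraries not in cold. It was between 32700 and 60800 CPM in the 18 libraries taken at the end of cold. These 3 markers are themselves nuclear photosynthesis genes, so their sum is no independent measure of leaf content in cold. The sum of 3 root markers was between 9.13 and 138 CPM without cold and between 0.746 and 18.8 CPM at the end of cold, with BGLU21 at 0 counts in 23 libraries and CASP1 in 7. The sum of 5 floral markers ran from 0.112 to 13.0 CPM over all 36 libraries. AP1 was at 0 counts in 11 libraries, AP3 in 9, PI in 5, SEP3 in 2 and AG in 0. The part of these tissues in the results was not tested. In bulk RNA such as this, fewer cells of a type and less RNA per cell cannot be told apart.

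The promoter windows of 7 of the genes, the 250 bases before the annotated start, are shown because the results or the motifs turn on these genes: PSAD1 and PSAD2 are the pair of copies that diverged the most in cold, PSAH2, PSBQ1 and PSBQ2 hold a G-box more than once, and PSBS and FD2 were the transcripts that cold moved the least in Col-0. They were read from the RefSeq TAIR10.1 assembly with its own annotation and are written 5′ to 3′ on the strand of the gene, with capitals for a match to CACGTG (the G-box), GATAAG (the I-box), CCAATC, or else to CCGAC (the core of the C-repeat bound by CBF factors), or to AAAATATCT (the evening element), on either strand.
PSAD1 (AT4G02770, chr4:1230165-1230414, minus strand): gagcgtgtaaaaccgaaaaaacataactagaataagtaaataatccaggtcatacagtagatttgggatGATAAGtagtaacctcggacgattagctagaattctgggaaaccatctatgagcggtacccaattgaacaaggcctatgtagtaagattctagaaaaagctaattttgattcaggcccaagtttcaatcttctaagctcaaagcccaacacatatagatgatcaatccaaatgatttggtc
PSAD2 (AT1G03130, chr1:754263-754512, minus strand): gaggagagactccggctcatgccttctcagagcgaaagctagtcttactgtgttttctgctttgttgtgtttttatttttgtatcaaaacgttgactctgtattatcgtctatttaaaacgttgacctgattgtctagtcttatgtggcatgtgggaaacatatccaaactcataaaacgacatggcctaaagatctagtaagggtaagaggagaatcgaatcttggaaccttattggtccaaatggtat
PSAH2 (AT1G52230, chr1:19454548-19454797, plus strand): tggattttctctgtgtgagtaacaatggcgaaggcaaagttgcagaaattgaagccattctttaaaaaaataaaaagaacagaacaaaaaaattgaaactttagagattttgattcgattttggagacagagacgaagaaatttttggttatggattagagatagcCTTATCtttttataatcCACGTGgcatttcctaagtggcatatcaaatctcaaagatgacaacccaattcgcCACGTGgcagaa
PSBQ1 (AT4G21280, chr4:11334102-11334351, plus strand): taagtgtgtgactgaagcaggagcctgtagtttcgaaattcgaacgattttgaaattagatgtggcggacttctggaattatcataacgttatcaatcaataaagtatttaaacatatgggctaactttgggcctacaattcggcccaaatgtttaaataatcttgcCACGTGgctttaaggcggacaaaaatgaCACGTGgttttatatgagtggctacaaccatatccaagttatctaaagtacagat
PSBQ2 (AT4G05180, chr4:2673244-2673493, minus strand): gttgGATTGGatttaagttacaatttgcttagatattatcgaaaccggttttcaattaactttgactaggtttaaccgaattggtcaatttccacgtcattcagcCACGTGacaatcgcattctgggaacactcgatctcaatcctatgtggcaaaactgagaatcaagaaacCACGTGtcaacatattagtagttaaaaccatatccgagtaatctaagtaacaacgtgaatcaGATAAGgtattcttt
PSBS (AT1G44575, chr1:16869971-16870220, plus strand): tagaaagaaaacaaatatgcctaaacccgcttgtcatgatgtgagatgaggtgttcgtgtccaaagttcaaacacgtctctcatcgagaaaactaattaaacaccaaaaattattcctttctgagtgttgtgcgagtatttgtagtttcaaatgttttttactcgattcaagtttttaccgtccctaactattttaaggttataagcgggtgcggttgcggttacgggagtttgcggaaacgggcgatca
FD2 (AT1G60950, chr1:22444057-22444306, plus strand): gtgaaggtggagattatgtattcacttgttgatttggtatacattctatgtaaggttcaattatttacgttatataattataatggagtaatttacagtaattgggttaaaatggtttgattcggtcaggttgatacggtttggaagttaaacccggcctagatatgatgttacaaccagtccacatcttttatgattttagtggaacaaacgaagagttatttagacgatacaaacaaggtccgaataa

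Among the 32 windows, CACGTG was present in 6 (18.8%), those of PSAE2, PSAH2, PSBQ1, PSBQ2, PSBTN and ATPD, against 6.49% of 27443 windows of the same length from all nuclear protein-coding genes. GATAAG was present in 9 (28.1%, against 12.3% of all), CCAATC in 4 (12.5%, against 10.2%) and AAAATATCT in the window of ATPC1 (3.12%, against 2.36%). CCGAC was present in 0 of the 32, against 12% of all windows. Overlapping matches numbered 0 in these windows. The windows of PSBS, FD2 and PSAD2 held none of the 5 motifs.

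Without cold, these transcripts were among the most abundant in the rosette. In C28 plants 29 of the 32 ranked within the top 100 genes by CPM in both accessions, PSBR, a small subunit of photosystem II, ranked 10 in both, and PETE1, the minor plastocyanin gene, ranked lowest at 551 in Col-0 and 653 in N14. Per kilobase of exon, PSBR was again highest in Col-0 C28 plants, at 8640 ± 2354 CPM per kb (SD, n = 3), followed by PSAO at 5112 ± 619 CPM per kb, PSAG at 4666 ± 790 CPM per kb and PSAL at 4459 ± 1000 CPM per kb, the last 3 of which overlapped within their SDs. FNR2, at 484 ± 44.7 CPM per kb, and PETE1, at 222 ± 16.9 CPM per kb, were the lowest and lay apart from each other. Together the 32 genes took between 8.35% and 10.5% of all counts in the 9 Col-0 libraries not in cold and between 8.69% and 10.5% in those of N14. At the end of cold their share was between 2.75% and 4.87% in Col-0 and between 2.37% and 4.60% in N14, so that the ranges of cold and other libraries lay apart in each accession.

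**Figure D1:**
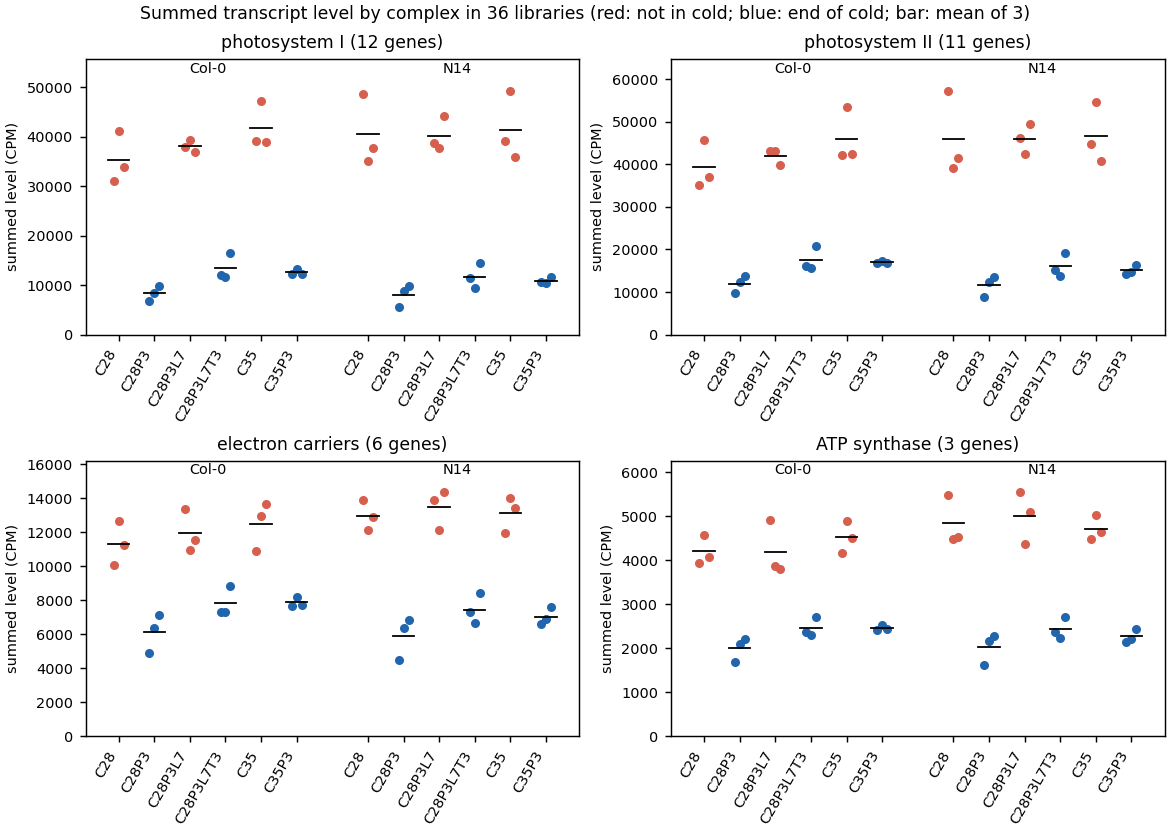
Summed level of the genes of each complex (CPM, linear axes from 0) in each of the 36 libraries, by accession and condition; red points are libraries not in cold, blue points libraries at the end of cold, and black bars the mean of the 3 libraries of a group. In every panel the blue points lie below the red points of the same accession.

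The first cold at 28 days lowered nearly the whole set. In Col-0, 30 of the 32 transcripts fell and 0 rose (edgeR quasi-likelihood test, Benjamini-Hochberg adjusted p under 0.05), where 28.0% of all tested genes fell and 26.7% rose, and the median change of the 32 was -1.89 on the log2 scale against -0.03 for all tested genes. In N14 all 32 fell, where 29.2% of all tested genes fell and 27.6% rose, with a median of -2.06 against -0.03. The primed libraries lay entirely below the C28 libraries for 30 transcripts in Col-0 and 31 in N14. The same count was not made over all tested genes, so this separation has no baseline beside it. With any 1 of the 6 libraries left out, 30 transcripts fell in Col-0 and between 30 and 32 in N14.

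By complex, photosystem I fell as a whole and the furthest. All 12 of its transcripts fell in both accessions, with changes from -2.94 to -1.75 in Col-0 (median -2.04) and from -3.12 to -1.80 in N14 (median -2.43). The deepest fall was that of PSAD2, which encodes a stromal subunit that docks ferredoxin. PSAD2 stood at 1513, 1712 and 1491 CPM in the Col-0 C28 libraries and at 171, 198 and 246 CPM in the primed libraries, a change of -2.94 ± 0.22 (edgeR, adjusted p = 6.9e-11), or 7.67-fold lower. In N14 it went from 2046, 1648 and 1673 CPM to 121, 233 and 263 CPM, a change of -3.12 ± 0.22 (adjusted p = 2.7e-11), or 8.69-fold lower. The groups were far from overlapping in either accession, and the lowest value in each was replicate 1 of the primed libraries.

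PSAN, a lumenal subunit near the plastocyanin docking site, and PSAO, a small membrane subunit, followed. PSAN had 2953, 3810 and 2942 CPM in Col-0 C28 libraries and 430, 647 and 692 CPM in primed libraries (-2.46 ± 0.25, adjusted p = 6.5e-09). PSAO had 3693, 4705 and 4161 CPM against 574, 757 and 954 CPM (-2.46 ± 0.23, adjusted p = 2.0e-09). Neither transcript had a primed library near a control library. In N14, where 1 C28 library stood above the others for both genes, PSAN went from 5029, 3155 and 3724 CPM to 349, 647 and 694 CPM (-2.82 ± 0.25, adjusted p = 7.9e-10). PSAO in N14 went from 5747, 4150 and 4751 CPM to 428, 748 and 882 CPM (-2.83 ± 0.23, adjusted p = 2.2e-10). PSAK and PSAG, membrane subunits on the side of the light-harvesting antenna, changed by -2.24 ± 0.21 and -1.98 ± 0.20 in Col-0 and by -2.49 ± 0.21 and -2.23 ± 0.20 in N14. PSAL, part of the docking site for mobile antenna, changed by -1.89 ± 0.22 in Col-0 and -2.19 ± 0.22 in N14, and PSAF, a plastocyanin docking subunit, by -1.81 ± 0.20 and -1.80 ± 0.20.

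In photosystem II, 10 of 11 transcripts fell in Col-0 and 11 of 11 in N14, with medians of -2.0 and -2.15. PSBW, a small membrane subunit, fell by 2.23 ± 0.23 in Col-0 and 2.56 ± 0.23 in N14 on the log2 scale. The oxygen-evolving proteins fell to a like degree: PSBP1 by 2.20 ± 0.19 and 2.45 ± 0.19, PSBO1, the main manganese-stabilizing protein, by 1.84 ± 0.17 and 1.92 ± 0.17, and PSBQ2 by 2.20 ± 0.23 and 2.61 ± 0.23. PSBQ1 changed by -1.89 ± 0.19 and -2.15 ± 0.19, PSBO2 by -2.14 ± 0.20 and -1.98 ± 0.20, and PSBR, which helps to hold these proteins, by -2.01 ± 0.26 and -2.52 ± 0.26. Of the small subunits, PSBX changed by -1.56 ± 0.18 and -1.74 ± 0.18 and PSBTN by -2.0 ± 0.25 and -2.43 ± 0.25. PSBY, a small subunit next to cytochrome b559, fell by 1.02 ± 0.15 and 1.21 ± 0.15.

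PSBS, the protein that senses lumen acidity for the quenching of excess light energy, was the exception within photosystem II, singled out after its values were seen. Its Col-0 level was 2128, 2456 and 2357 CPM in C28 libraries and 1954, 2191 and 2284 CPM in primed libraries (-0.11 ± 0.13, adjusted p = 0.494), so the groups overlapped. In N14 it was 3139, 2371 and 2520 CPM and 1823, 2066 and 2147 CPM, with the groups apart, and the change of -0.41 ± 0.13 passed the test (adjusted p = 0.00947). That call was lost without N14 C28 replicate 1 (-0.28, adjusted p = 0.0981) and without N14 C28P3 replicate 1 (-0.34, adjusted p = 0.0516). The difference in this response between the accessions was -0.30 ± 0.19 (adjusted p = 0.845), so it was not shown to differ.

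The electron carriers and the ATP synthase had smaller median falls than the photosystems. The medians were -1.11 in Col-0 and -1.26 in N14 for the 6 carriers, and -1.24 and -1.41 for the 3 ATP synthase genes. PETE2, the major plastocyanin, fell by 1.90 ± 0.19 in Col-0 and 2.05 ± 0.19 in N14. PETC, the Rieske iron-sulphur protein of the cytochrome b6f complex, fell by 0.88 ± 0.14 and 1.14 ± 0.14. ATPC1, the main gamma subunit of the ATP synthase that carries its redox switch, fell by 0.71 ± 0.12 and 0.98 ± 0.12. ATPD and ATPG, its delta subunit and a subunit of its membrane stalk, fell by 1.24 ± 0.18 and 1.29 ± 0.18 on the log2 scale in Col-0, and changed by -1.45 ± 0.18 and -1.41 ± 0.18 in N14. The ferredoxin-NADP reductases and PETE1 are described with their copies.

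FD2, the major leaf ferredoxin, was the other transcript that cold hardly moved in Col-0, and it too was singled out after its values were seen. Its Col-0 libraries held 2623, 3633 and 3435 CPM in C28 plants and 2439, 3228 and 3584 CPM in primed plants (-0.07 ± 0.17, adjusted p = 0.761), with the groups overlapping almost fully. In N14 the values were 4077, 3747 and 4218 CPM against 2046, 2905 and 3107 CPM, without overlap, and FD2 fell by 0.58 ± 0.17 (adjusted p = 0.00479). The difference between the accessions, -0.51 ± 0.24, did not pass the test (adjusted p = 0.670).

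**Figure D2:**
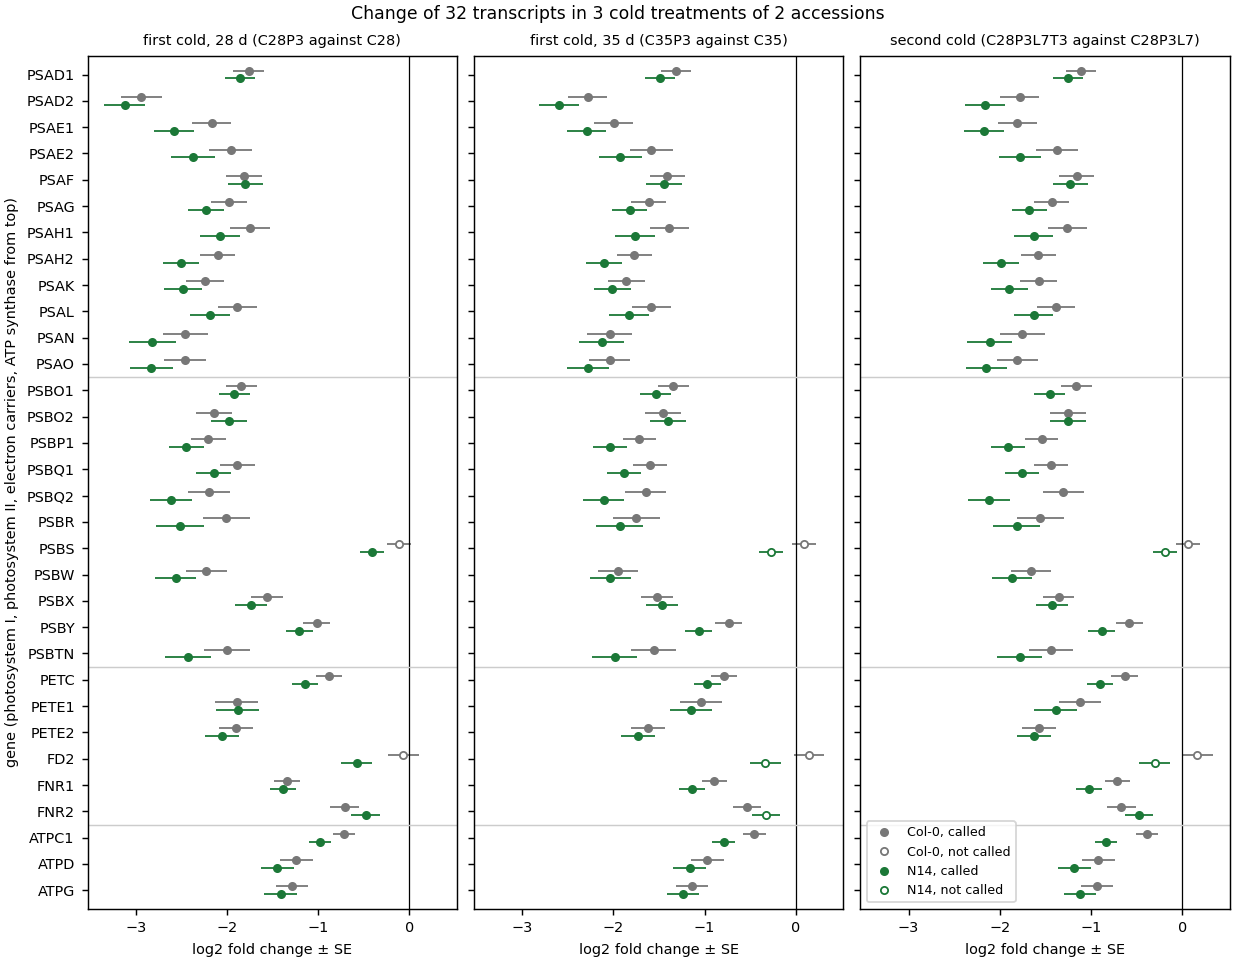
Log2 fold change ± SE of the 32 transcripts (rows, grouped by complex) in the first cold at 28 days, the first cold at 35 days and the second cold, each panel against its own control; grey is Col-0, green is N14, filled points passed the test and open points did not. Nearly all points lie left of 0, with PSAD2 the lowest at 28 days (-2.94 and -3.12) and PSBS and FD2 next to 0 in Col-0, while in N14 at 28 days PSBS (-0.41), FNR2 (-0.48) and FD2 (-0.58) lie nearest to 0 and passed the test.

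The first cold at 35 days asked whether plants a week older respond alike. In Col-0 the same number of transcripts, 30 of 32, fell and 0 rose, where 25.2% of all tested genes fell and 26.7% rose, with a median of -1.54. In N14, 29 of 32 fell, where 29.0% of all tested genes fell and 25.0% rose, with a median of -1.75. The 2 transcripts not called in Col-0 were PSBS (0.09 ± 0.13) and FD2 (0.14 ± 0.17), and the 3 not called in N14 were PSBS (-0.28 ± 0.13), FD2 (-0.34 ± 0.17) and FNR2 (-0.33 ± 0.16).

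PSAD2 again fell the furthest at 35 days, with changes of -2.28 ± 0.22 in Col-0 and -2.60 ± 0.22 in N14. Its levels were 1656, 1570 and 1414 CPM in Col-0 C35 libraries and 329, 337 and 289 CPM in C35P3 libraries. In N14 they were 1678, 1964 and 1641 CPM and 299, 255 and 320 CPM. The C35P3 libraries of a group lay closer together than the primed libraries did. PSAO (-2.04 ± 0.23) and PSAN (-2.04 ± 0.24) were next in Col-0, and PSAE1, a stromal subunit, was next in N14 (-2.29 ± 0.22).

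PSAO had 5071, 6381 and 4899 CPM in the Col-0 C35 libraries and 1364, 1429 and 1180 CPM in the C35P3 libraries. PSAN had 3834, 5068 and 4059 CPM and 998, 1169 and 987 CPM in the same libraries. PSAE1 in N14 had 4003, 5257 and 3443 CPM against 823, 846 and 920 CPM. The cold libraries of all 3 lay well below their controls, and the spread was wider among the controls than in the cold.

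The second cold, given to plants that had been primed and had then recovered, lowered the set once more. In Col-0, 30 of 32 fell and 0 rose, where 18.7% of all tested genes fell and 21.6% rose, with a median of -1.33. In N14, 30 of 32 fell, where 24.2% of all tested genes fell and 22.4% rose, with a median of -1.63. PSBS and FD2 were the 2 not called in both accessions, at 0.07 ± 0.13 and 0.17 ± 0.17 in Col-0 and -0.19 ± 0.13 and -0.30 ± 0.17 in N14.

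The largest falls of the second cold were again in photosystem I. In Col-0 PSAO went from 4711, 5642 and 4743 CPM after the lag to 1286, 1292 and 1727 CPM (-1.81 ± 0.23, adjusted p = 4.7e-07). PSAE1 went from 3814, 4310 and 3788 CPM to 997, 1055 and 1349 CPM (-1.81 ± 0.21, adjusted p = 2.2e-07). PSAD2 went from 1173, 1319 and 1446 CPM to 367, 320 and 459 CPM (-1.78 ± 0.21, adjusted p = 2.6e-07). The groups lay far apart for each, and the highest triggered library was replicate 3.

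In N14 the same 3 genes led, with PSAE1 falling by 2.17 ± 0.22, PSAD2 by 2.16 ± 0.22 and PSAO by 2.15 ± 0.23. PSAE1 stood at 4100, 3918 and 4661 CPM after the lag and 920, 743 and 1146 CPM after the second cold. PSAD2 stood at 1181, 1563 and 1799 CPM and 338, 260 and 416 CPM. ATPC1, at the other end, fell by 0.39 ± 0.12 in Col-0 (adjusted p = 0.0126), a call that was lost without Col-0 C28P3L7 replicate 1 (-0.25, adjusted p = 0.116) and without Col-0 C28P3L7T3 replicate 2 (-0.35, adjusted p = 0.0564). The fall of FNR2 in N14 was lost without N14 C28P3L7T3 replicate 2 (-0.41, adjusted p = 0.0743) and without N14 C28P3L7 replicate 3 (-0.43, adjusted p = 0.0562).

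Over the 6 comparisons of cold with control, 29 of the 32 transcripts fell in every comparison. In single comparisons between 18.7% and 29.2% of all tested genes fell, and the share that fell in all 6 was not computed. FNR2 fell in 5, and PSBS and FD2 fell in the first cold at 28 days in N14 alone among the 6. All 32 had their lowest fold change in the first cold at 28 days in each accession, and 29 in Col-0 and 27 in N14 had the highest in the second cold. That order is given as a description, since the comparisons at 28 and 35 days differ in the age of the plants and all 32 transcripts were lowest in replicate 1 of the primed libraries. How often all tested genes follow that order was not counted. Across the 32 transcripts the change in Col-0 went with that in N14 (Pearson r = 0.97, Spearman rho = 0.95 at 28 days, given as a description since the genes share libraries and are not independent replicates). Transcripts with a higher level per kb in C28 plants tended to fall further, with r = -0.38 and rho = -0.50 in Col-0 and r = -0.47 and rho = -0.53 in N14, which shares the C28 libraries between its axes.

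**Figure D3:**
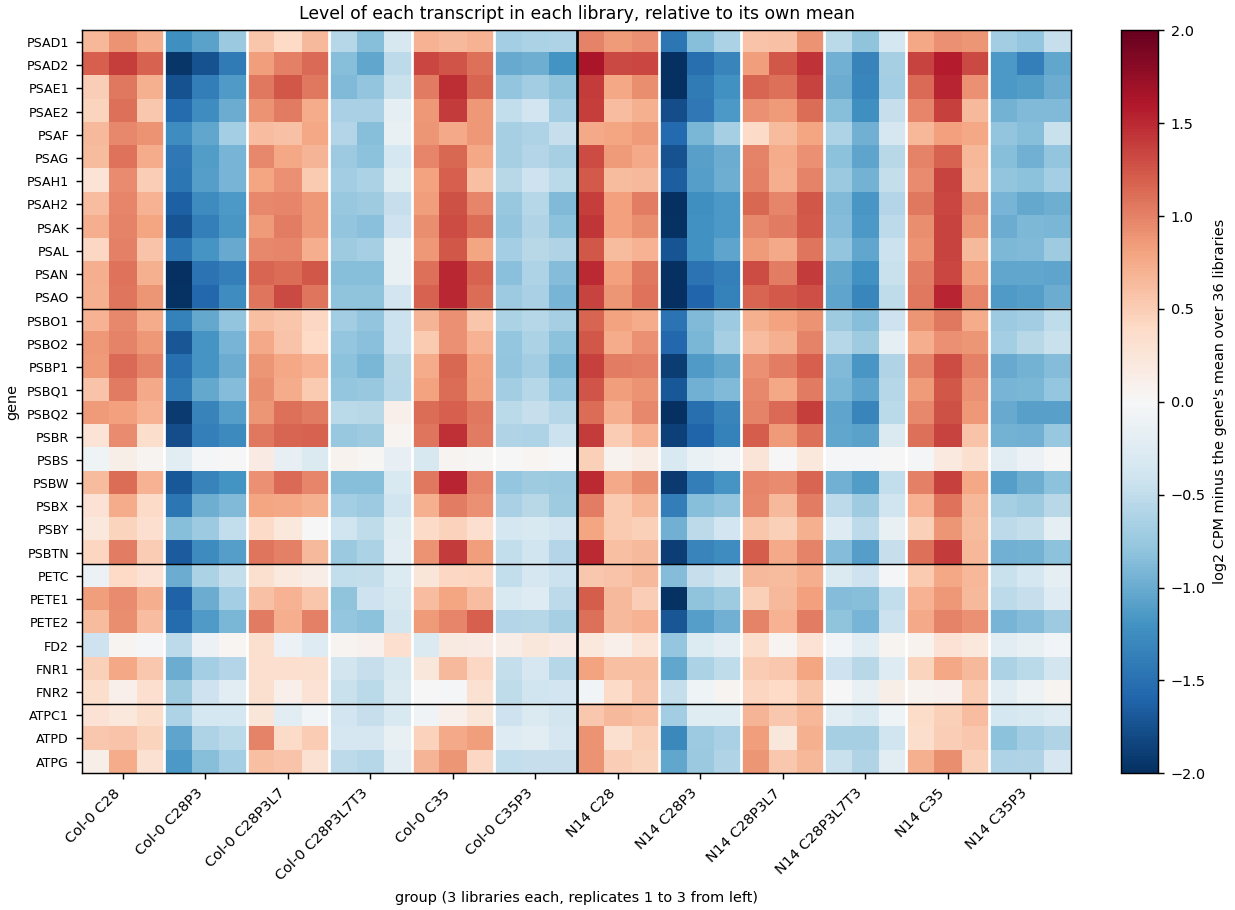
Level of each of the 32 transcripts (rows, complexes separated by black lines) in each of the 36 libraries (columns, 3 per group, accessions separated by a black line), as log2 CPM minus the mean of that gene over all libraries; the colour scale runs from -2 to 2 and values beyond it take the end colour. The 9 cold libraries of each accession are blue and the 9 others red for nearly every gene, replicate 1 of the primed libraries is the darkest blue, and the rows of PSBS and FD2 stay pale.

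Several subunits are encoded by 2 gene copies, and whether cold shifts the balance between copies was asked within each library, by the log2 ratio of their CPM, over the 9 cold against the 9 other libraries of an accession (exact two-sided permutation test, adjusted over 14 tests, smallest possible p 4.1e-05). The test treats the libraries of the 3 cold conditions as alike, and those of the 3 others as alike. In coding sequence the copies were between 75.0% (PETE) and 88.0% (PSAD) identical, and the longest run of bases that the transcripts of a pair share was between 17 and 35 bases. The RSEM and kallisto counts changed the call of 0 of the 14 tests.

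The 2 copies of PSAD parted in cold. The log2 ratio of PSAD1 to PSAD2 was between 0.66 and 1.02 in the Col-0 libraries not in cold and between 1.49 and 2.00 at the end of cold, a mean difference of 0.94 (exact permutation test, adjusted p = 9.6e-05, n = 9 and 9). In N14 it was between 0.63 and 1.03 without cold and between 1.60 and 2.29 at its end, a mean difference of 1.10 (exact permutation test, adjusted p = 9.6e-05). The ranges did not overlap in either accession. PSAD1 itself fell from 2547, 2999 and 2664 CPM to 687, 768 and 965 CPM in the first cold of Col-0 at 28 days (-1.76 ± 0.17), a smaller change than that of PSAD2. The ratio went back to between 0.69 and 1.02 in Col-0 after the lag, and rose again to between 1.49 and 1.57 after the second cold.

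PSAE and PSAH, which encode stromal and peripheral subunits of photosystem I, shifted by less. In the first cold at 28 days PSAE1 and PSAE2 changed by -2.17 ± 0.22 and -1.96 ± 0.24 in Col-0 and by -2.58 ± 0.22 and -2.38 ± 0.24 in N14. PSAH1 and PSAH2 changed by -1.75 ± 0.22 and -2.10 ± 0.20 in Col-0 and by -2.07 ± 0.22 and -2.50 ± 0.20 in N14. PSAE1 lost ground to PSAE2 in cold, with a mean difference in log2 ratio of -0.36 in Col-0 (exact permutation test, adjusted p = 9.6e-05) and -0.33 in N14 (adjusted p = 0.00016), the ranges touching in N14 alone. PSAH1 gained on PSAH2 by 0.36 in Col-0 and 0.40 in N14 (exact permutation test, adjusted p = 9.6e-05 in both), so that the copies, of which PSAH2 had led in every library without cold, came to near equal CPM, with mean log2 ratios of -0.01 ± 0.08 and 0.01 ± 0.09 (SD, n = 9).

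FNR1 and FNR2 encode the leaf forms of ferredoxin-NADP reductase, and their ratio was lower over the cold libraries than over the others. In the first cold at 28 days FNR1 changed by -1.34 ± 0.14 in Col-0 and -1.38 ± 0.14 in N14, and FNR2 by -0.71 ± 0.16 in Col-0. The mean log2 ratio of FNR1 to FNR2 went from 0.56 ± 0.24 to 0.22 ± 0.17 in Col-0 (SD, n = 9, difference -0.34, exact permutation test, adjusted p = 0.0021), with overlapping ranges. The second cold showed no such shift in Col-0. The ratio there was 0.325, 0.540 and 0.345 after the lag and 0.387, 0.402 and 0.283 after the second cold. In N14 the mean log2 ratio went from 0.62 ± 0.29 to -0.15 ± 0.08 (difference -0.76, exact permutation test, adjusted p = 9.6e-05), with the ranges apart and FNR2 above FNR1 in each of the 9 cold libraries. The counts behind this were 1597, 1384 and 1381 CPM of FNR1 in N14 C28 libraries against 443, 586 and 643 CPM in primed libraries, and 708, 960 and 1094 CPM of FNR2 against 527, 695 and 760 CPM. FNR2 thus overlapped between the groups while FNR1 did not, and the call of FNR2 in this comparison (-0.48 ± 0.16, adjusted p = 0.0110) was lost without N14 C28P3 replicate 1 (adjusted p = 0.0920) or N14 C28 replicate 3 (adjusted p = 0.0949). Whether the ratio differs between the accessions was not tested, here or for the other pairs.

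The plastocyanin copies PETE1 and PETE2 differed widely in level, with mean log2 ratios of -4.44 in Col-0 and -4.42 in N14 without cold, and moved by 0.33 and 0.32 in cold (exact permutation test, adjusted p = 0.0092 and 0.011). PETE1 itself changed by -1.89 ± 0.24 in Col-0 and -1.88 ± 0.24 in N14 in the first cold at 28 days. In that treatment the ratios of the groups overlapped in both accessions. They were -4.063, -4.240 and -4.145 in Col-0 C28 libraries and -4.345, -4.129 and -4.038 in primed libraries. In N14 they were -4.166, -4.280 and -4.472, and -4.531, -3.970 and -4.030. The calls of the ratio were lost without the libraries numbered 2 (adjusted p = 0.061 and 0.081) or 3 (adjusted p = 0.058 and 0.11). The oxygen-evolving copies PSBO1 and PSBO2 passed in Col-0 (0.17, exact permutation test, adjusted p = 0.0031) and not in N14 (-0.09, adjusted p = 0.13, and 0.036 without the libraries numbered 3). In Col-0 the PSBO ratios of cold and control lay apart in the first cold at 28 days alone. They were 1.806, 1.936 and 1.856 in C28 libraries and 2.325, 2.125 and 2.105 in primed libraries. PSBQ1 and PSBQ2 passed in N14 (0.36, exact permutation test, adjusted p = 0.0021) and not in Col-0 (0.10, adjusted p = 0.49), where the ratio ran from -0.51 to 0.65 over the cold libraries. The Col-0 ratios of PSBQ too were apart at 28 days, with -0.126, 0.388 and 0.214 in C28 libraries and 0.655, 0.469 and 0.392 in primed libraries. They overlapped at 35 days and in the second cold.

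**Figure D4:**
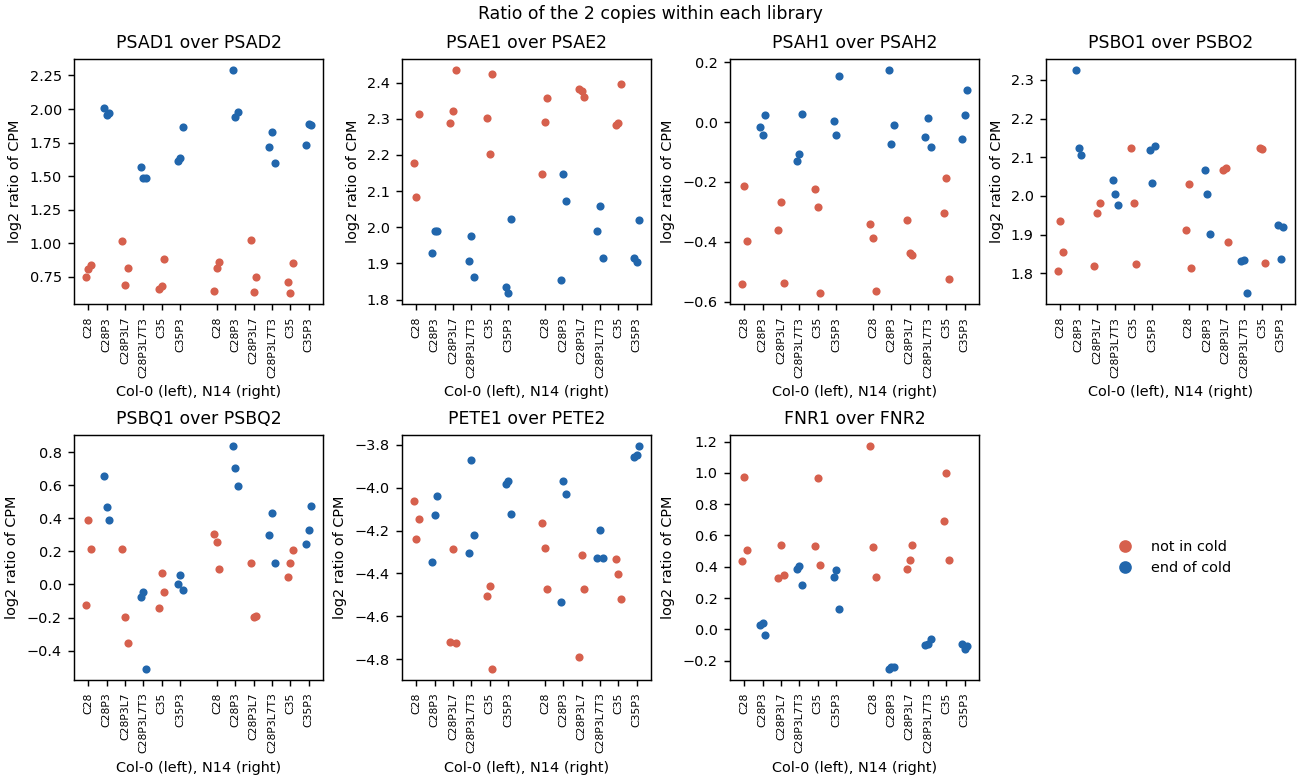
Log2 ratio of the CPM of the 2 copies of a subunit in each library, for 7 pairs, by condition, with Col-0 on the left and N14 on the right of each panel; red points are libraries not in cold and blue points libraries at the end of cold, and each panel has its own vertical scale. The colours separate fully in both accessions for PSAD and PSAH, and in N14 for FNR, where the cold ratios lie between -0.25 and -0.06.

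During the 7 days of lag the set came back up. Lag plants were higher than primed plants for 30 of 32 transcripts in Col-0, where 28.2% of all tested genes were higher, with a median of 1.87, and for all 32 in N14, where 29.9% were higher, with a median of 2.09. In this comparison PSAN rose the most in Col-0 (2.78 ± 0.25), from 430, 647 and 692 CPM to 3993, 3882 and 4243 CPM. PSAO rose by 2.72 ± 0.23 to 4711, 5642 and 4743 CPM, and PSAD2 by 2.68 ± 0.22 to 1173, 1319 and 1446 CPM. In N14 PSAO rose by 2.94 ± 0.24, PSAN by 2.92 ± 0.25 and PSAD2 by 2.88 ± 0.22. These were the genes that had fallen the furthest in the same primed libraries, which both comparisons share. PSBS (-0.01 ± 0.13) and FD2 (0.18 ± 0.17) were not called in Col-0, and in N14 the rise of PSBS, 0.33 ± 0.13 (adjusted p = 0.0326), was lost without any of several libraries, with adjusted p = 0.129 without N14 C28P3 replicate 1, 0.0546 without N14 C28P3 replicate 2, 0.111 without N14 C28P3L7 replicate 1 and 0.0894 without N14 C28P3L7 replicate 3.

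Whether the earlier cold left a trace after the lag was asked against the 35-day controls. The count of called members was 0 of 32 in both accessions, where 0% of all tested genes were called, with 0 of 32 at an unadjusted p under 0.05. Over all genes, 670 in Col-0 and 919 in N14 had an unadjusted p under 0.05, and DESeq2 called 2 and 56 genes. The changes of the 32 ran from -0.24 (PSAD2, ± 0.21) to 0.13 (FNR2, ± 0.16) in Col-0 and from -0.22 (PSAD2, ± 0.21) to 0.22 (FNR2, ± 0.16) in N14. PSAD2 thus had 1173, 1319 and 1446 CPM in Col-0 lag libraries and 1656, 1570 and 1414 CPM in C35 libraries, groups that overlapped. In Col-0, 31 of the 32 changes were below 0, with a median of -0.13 against -0.01 for all genes, and in N14, 20 were below 0, with a median of -0.01. These signs are a description, since the transcripts of a library rise and fall together.

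Whether a second cold acts like a first was asked in plants of similar age. Between triggered and C35P3 plants 0 of 32 members were called in Col-0, where 0% of all tested genes were called, and 0 of 32 in N14, where 0.00494% were called. The unadjusted count was 0 of 32 in both, with 937 and 1765 over all genes, and DESeq2 called 1 and 217 genes, 0 of them members. The medians were 0.04 in Col-0 and 0.10 in N14, and the widest changes were those of PSAD2 in Col-0 (0.27 ± 0.21) and PETE1 in N14 (-0.32 ± 0.23). The difference between the second and the first cold response, each against its own control, was likewise called for 0 of 32 in both accessions, where 0% of all tested genes were called. The largest such difference was again that of PSAD2, 0.50 ± 0.29 in Col-0 (adjusted p = 0.957) and 0.43 ± 0.29 in N14 (adjusted p = 1). Over all genes 846 in Col-0 and 1053 in N14 had an unadjusted p under 0.05 in that difference, and DESeq2 called 1 and 0.

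Between C35 and C28 plants, whose pools also differed in the number of rosettes so that age and pool size cannot be told apart, 0 of 32 members were called in both accessions, where 3.41% of all tested genes were called in Col-0 and 0.0197% in N14. In Col-0, 3 members had an unadjusted p under 0.05, as did 4212 of all 20263 tested genes. The widest change there was that of PSBR, from 5540, 8896 and 5886 CPM to 9703, 12610 and 9469 CPM (0.65 ± 0.25, adjusted p = 0.139). The groups did not overlap for PSBR, and without Col-0 C28 replicate 2 its change was 0.89 (adjusted p = 0.0468). In N14, 0 members had an unadjusted p under 0.05, against 1875 of all tested genes.

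**Figure D5:**
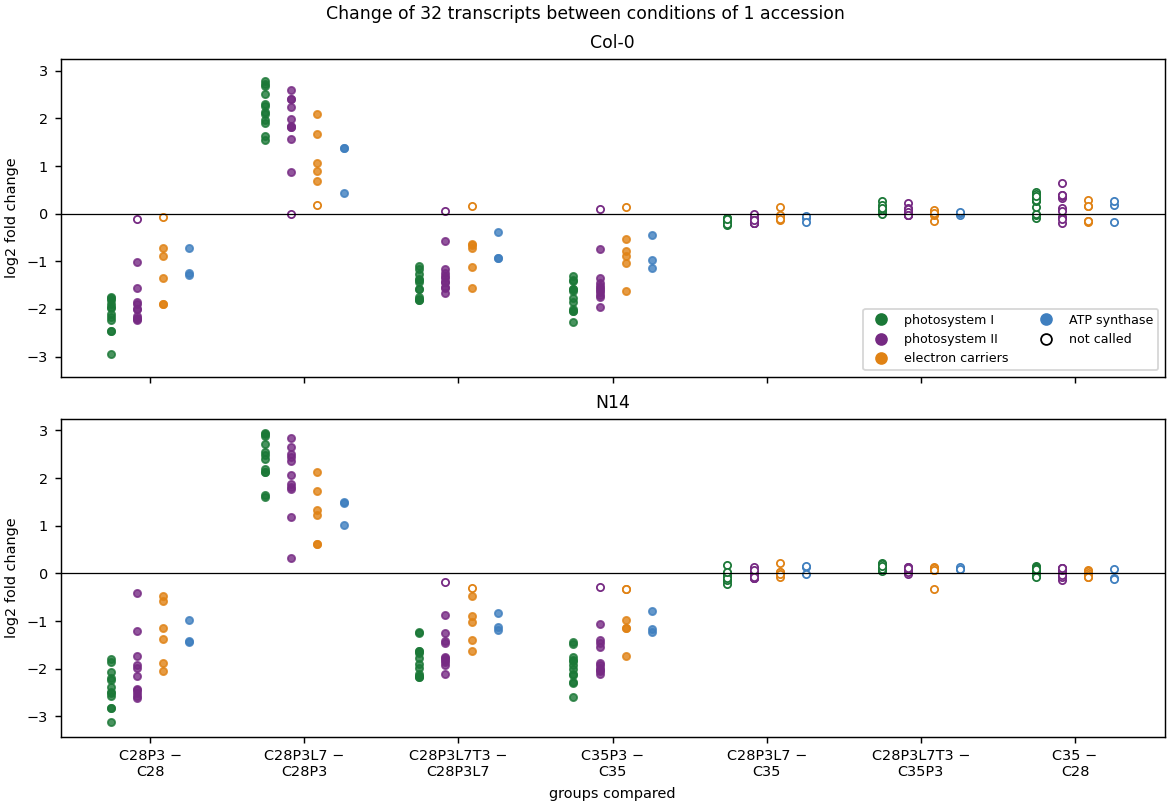
Log2 fold change of the 32 transcripts between conditions of an accession, Col-0 above and N14 below, with the groups compared under each column and the complexes by colour; filled points passed the test and open points did not. Nearly all points of the 3 cold columns lie below 0, and nearly all of the return during the lag above 0 (medians 1.87 and 2.09). The last 3 columns hold open points on both sides of 0, though 31 of the 32 are below 0 for C28P3L7 against C35 in Col-0.

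Few of these transcripts were called different between N14 and Col-0 in any condition. At C28, 0 of 32 were called, where 12.3% of all tested genes were called, and the count was also 0 at C28P3, where 11.1% were called, and at C35P3, where 14.1% were called. When the 2 groups at C35P3 were fitted alone, 12 members were lower and 1 higher in N14, where 16.0% of the 18758 genes tested in that fit were lower and 13.7% higher. Among the 12 were PSBQ2 (-0.53, edgeR, adjusted p = 0.00046) and ATPD (-0.42, adjusted p = 0.00318). At C35, where 14.0% were called, ATPC1 was higher in N14 (0.39 ± 0.12, edgeR, adjusted p = 0.0284). At C28P3L7, where 15.7% were called, ATPC1 (0.63 ± 0.12, adjusted p = 0.00045) and PETC (0.45 ± 0.14, adjusted p = 0.0315) were higher in N14. Both calls were lost when these 2 groups were fitted alone (0.58, adjusted p = 0.0716 for ATPC1, and 0.40, adjusted p = 0.15 for PETC). ATPC1 had 1289, 946 and 1051 CPM in Col-0 lag libraries and 1746, 1589 and 1733 CPM in those of N14, with no overlap.

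At C28P3L7T3, where 14.0% were called, PSBQ2 was lower in N14 (-0.64 ± 0.22, edgeR, adjusted p = 0.0490), with 984, 974 and 1529 CPM in Col-0 and 688, 569 and 976 CPM in N14. Those groups touched, and the call was lost without Col-0 replicate 3 (adjusted p = 0.372), N14 replicate 1 (adjusted p = 0.160) or N14 replicate 2 (adjusted p = 0.242). Same-numbered libraries of the accessions deviated together here, and with the replicate number as a block FNR2 was also higher in N14 at C28P3L7T3 (0.42, edgeR, adjusted p = 0.0180, against 0.0821 without the block). The call of ATPC1 at C35 was lost in 4 of the 6 fits that left out a library, with adjusted p of 0.153 without Col-0 replicate 1, 0.0733 without Col-0 replicate 2, 0.0555 without N14 replicate 2 and 0.126 without N14 replicate 3. That of PETC at C28P3L7 was lost in 5 of 6, with adjusted p from 0.0573 to 0.110.

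The cold response itself was called different between the accessions for 0 of 32 members in each of the 3 treatments, where 0.301% of all tested genes were called for the first cold at 28 days, 0.266% for the first cold at 35 days and 0.262% for the second cold. The unadjusted counts were 1, 0 and 2 of 32, with 1436, 1670 and 1673 over all genes, and DESeq2 called 176, 161 and 160 genes, 0 of them members. The medians were -0.25, -0.22 and -0.29, with 28, 29 and 30 of the 32 differences below 0, which as above is a description of transcripts that move together. The widest was that of PSBQ2 in the second cold, -0.81 ± 0.31 (adjusted p = 0.411).

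Other genes of the thylakoid electron transport chain were followed through lists chosen by function, with earlier results of these data known. Of 14 nuclear genes of the NDH complex, which returns electrons from photosystem I to the plastoquinone pool, 13 fell and 0 rose in the first cold at 28 days in each accession, with medians of -1.16 in Col-0 and -1.41 in N14, against 28.0% and 29.2% of all tested genes that fell and 26.7% and 27.6% that rose. PnsL1, a lumenal subunit, fell by 1.79 in Col-0 and 2.28 in N14, and NdhM, a stromal subunit, by 1.96 and 1.80. PnsL3 was the member not called, at -0.41 and -0.36. With 1 library left out the falls numbered 11 to 13 in Col-0 and 12 to 13 in N14, PnsB2 in Col-0 being lost in 5 of 6 such fits and NdhT in N14 in 3 of 6. NdhO fell by 0.40 in Col-0, a call lost in 2 of 6 fits that left out a library, and by 1.33 in N14, and it was called different between the accessions in all 3 treatments, by -0.93 ± 0.21 (adjusted p = 0.0411), -0.93 ± 0.21 (adjusted p = 0.0462) and -0.95 ± 0.21 (adjusted p = 0.0397). Those calls were lost in 8, 10 and 9 of the 12 fits that left out a library, with adjusted p of up to 0.124, 0.139 and 0.159.

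Of 8 minor copies and small subunits, 7 fell and 0 rose in the first cold at 28 days in each accession, against the 28.0% and 29.2% of all tested genes that fell. ATPC2, a second gamma subunit gene, was among the 7, and its call was lost without Col-0 C28P3 replicate 3 (adjusted p = 0.0558) and without N14 C28P3 replicate 1 (adjusted p = 0.0817). FD1, the minor leaf ferredoxin, fell by 1.89 ± 0.27 in Col-0 where FD2 did not pass the test, and by 2.11 in N14, and its fall in the second cold was -1.88 and -2.20. PSBP-2, a second copy of PSBP, fell by 2.16 ± 0.40 in Col-0 and 2.37 in N14. FD3, the root-type ferredoxin, was the member not called, at -0.22 ± 0.30 in Col-0.

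Among transcripts for proteins that assemble or repair the photosystems some fell and some rose, as did all tested genes. Whether these lists differ from all genes was not tested. Of 11 assembly factors, 6 fell in the first cold at 28 days in each accession, with 0 rising in Col-0 and 1 in N14. Of all tested genes 28.0% fell and 26.7% rose in that treatment in Col-0, and 29.2% fell and 27.6% rose in N14. The 1 that rose in N14, LPA1, was lost without N14 C28 replicate 1 or C28P3 replicate 3, and the falls in Col-0 numbered 4 without C28P3 replicate 1 or 2. In the first cold at 35 days 4 rose in each accession while 2 fell in Col-0 and 4 in N14, against 26.7% and 25.0% of all tested genes that rose and 25.2% and 29.0% that fell. The 4 that rose in N14 became 1 without C35 replicate 1 or 2, where CEST, HCF101 and CPSRP54 were lost, and 2 without C35P3 replicate 3, and the 4 that fell there became 2 without C35 replicate 2. In Col-0 the 2 that fell became 4 without C35 replicate 3 and 1 without C35 replicate 2 or C35P3 replicate 3. PSB27, a lumenal assembly factor of photosystem II, fell by 1.94 in Col-0 and 2.00 in N14 at 28 days, whereas LPA1, which assists the insertion of a reaction centre protein, rose by 0.43 and 0.40 at 35 days. Of 8 repair factors, 4 fell and 1 rose at 28 days in each accession, against 28.0% and 29.2% of all tested genes that fell and 26.7% and 27.6% that rose. In N14, 2 rose without C28 replicate 3. TLP18.3, a lumenal protein of the repair cycle, fell by 1.60 and 1.46, FTSH8, a subunit of the thylakoid protease, was the gene that rose in Col-0 (0.58, a call lost in 5 of 6 fits that left out a library), and VAR1, another subunit of that protease, was the gene that rose in N14 (0.53).

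Of 11 genes of cyclic and alternative electron flow and its regulation, 6 fell and 0 rose in the first cold at 28 days in each accession, against 28.0% and 29.2% of all tested genes that fell. PGRL1B, a component of the antimycin-sensitive cyclic route, fell by 2.36 in Col-0 and 2.51 in N14, while PGR5, its partner, had -0.33 in Col-0, which did not pass the test, and fell by 0.84 in N14. TAP38, the phosphatase that reverses state transitions, fell by 1.42 and 1.36, and STN7, the opposing kinase, by 0.51 in Col-0, a call lost in 2 of the 6 fits that left out a library, with -0.25 in N14 not passing. STN8, a kinase of photosystem II core proteins, fell by 0.88 and 0.86.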

How the data were processed

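RNA of rosettes was sequenced in 36 libraries, 3 for each of 12 groups, with polyA enrichment and a directional kit, per the labels' protocols. The submitters' processing notes name the TAIR10 build and, among other tools, STAR 2.5.2a, RSEM 1.2.30, kallisto 0.42.5 and HTSeq 0.7.2. The deposited STAR table gave raw counts per gene. In the RSEM and kallisto tables the authors deposited expected counts, 94.2% and 86.6% of them whole, which were rounded before use. The strand settings used in counting were not given in the sources used here. Symbols matched 32835 of the 33602 identifiers in the RefSeq annotation of TAIR10.1, which also gave the promoter windows and exon lengths. The tables made with BWA, CLC, Salmon and TopHat were not used here.

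The main test was the quasi-likelihood F test of edgeR 4.0.16 (R 4.3.3) on the STAR counts, after filterByExpr by group and TMM scaling, with 12 group means fitted to all 36 libraries. Across 25 contrasts, p-values were adjusted by Benjamini-Hochberg over 20263 genes, with a threshold of 0.05. An error beside a log2 fold change is its SE, the size of the change over the root of F. CPM are scaled by TMM, except those of the tissue markers. Log2 CPM for ratios of copies used a prior count of 2, and ratios were compared by exact permutation in SciPy 1.17.1. The fit was tested on simulated data.

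The alternatives were RLE size factors, DESeq2 1.42.0, no filter on low counts, the replicate number as a block, the RSEM and kallisto counts, a fit of the groups compared alone, a prior count of 0.5 for the ratios, and leaving out each library. The 32 genes, the other lists, the pairs of copies and the rule for named genes were chosen with earlier results of these data known. That rule gave values in every library to the 3 largest falls and 3 largest rises of a contrast and to the copies described. Replicates come from independent experiments of pooled plants, and no pair of libraries agreed within sampling noise (chi-square per gene between 8.2 and 102). The labels do not say that a number marks 1 experiment. Deviations of same-numbered libraries correlated at over 0.1 in every pair between the accessions in all conditions but C28 (0.219 to 0.649). They also did between Col-0 C35 and C35P3 (0.134 to 0.225), so the numbers were taken to pair those groups. The same held for N14 C28 with N14 C28P3L7 (0.124 to 0.182) and Col-0 C35P3 with N14 C35 (0.119 to 0.169), groups not compared directly here. The main test and the permutation test of ratios did not use the pairing.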

Additional observations from a re-analysis of the deposited data

Results flagged for a closer look

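NdhO, a small subunit of the NDH complex, responded to cold differently in the 2 accessions, by a test of that difference. In the first cold at 28 days, the first cold at 35 days and the second cold, N14 minus Col-0 was -0.93, -0.93 and -0.95 in log2 fold change (edgeR, adjusted p = 0.0411, 0.0462 and 0.0397). The changes in N14 were -1.33, -1.26 and -1.17, and those in Col-0 were -0.40, -0.33 and -0.22, of which the last 2 did not pass the test. DESeq2, the replicate block and the RSEM and kallisto counts kept the 3 calls, while RLE size factors, no filter on low counts and a fit of the groups alone lost them (adjusted p from 0.0511 to 0.305), as did most fits that left out a library.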

How the results depend on the processing

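Members that fell numbered between 29 and 32 in each of the 6 comparisons of cold with control under every alternative, and 0 values reversed. Counts over all genes where few were called moved more. DESeq2 called 2 (Col-0) and 56 (N14) genes for lag against control, 1 and 217 for triggered against first cold, 1206 and 144 for age, 1 for second against first response in Col-0, 1 member higher in N14 at C28P3L7T3, and 176, 161 and 160 for the accession differences. Fitting the groups compared alone gave 1 and 532 genes for triggered against first cold, 22 and 0 for age, 19 and 8 for the accession differences at 28 and 35 days, and 1268, 932, 5575 and 1604 between accessions at C28, C35, C35P3 and C28P3L7. Members were then 0 higher at C35, 12 lower and 1 higher at C35P3, 0 higher at C28P3L7, and 0 lower and 1 higher at C28P3L7T3. The same fit lost the falls of ATPC1 in the second cold of Col-0 and of PSBS and FNR2 in the first cold of N14 at 28 days, and the rise of PSBS in the N14 lag (adjusted p = 0.0872, 0.0899, 0.101 and 0.133). Without the filter, age gave 439 and 19 genes, and members numbered 0 higher at C35, 1 higher at C28P3L7 and 0 lower at C28P3L7T3. RLE gave 1 and 0 for the last pair. RSEM counts gave 0 genes for triggered against first cold and for age in N14 and 1 member higher at C28P3L7, and kallisto counts 0 for age in N14.

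With the replicate number as a block, genes called in N14 were 5 for triggered against first cold and 12 for age, and members higher in N14 were 1 at C28 (PETC, 0.395) and 1 at C28P3L7T3. FNR2 also fell in the first cold of N14 at 35 days (-0.32, edgeR, adjusted p = 0.0270). The block changed no other call of a member. The numbers pair the accessions at C28P3L7T3 and share only a number in the other cases.

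Leaving out 1 library moved the genes called from 62 to 1479 for age in Col-0 (without C28 replicate 1 and 2), 0 to 359 in N14 (without C35 replicate 1 and 3), 0 to 1 and 0 to 179 for lag against control (the most without Col-0 C28P3L7 replicate 1 and N14 C35 replicate 3), 0 to 177 for triggered against first cold in N14 (the most without C28P3L7T3 replicate 2), and 27 to 89, 22 to 92 and 17 to 53 for the accession differences. Members ranged from 0 to 1 higher with age in Col-0, at C28 and at C35, 1 to 3 higher at C28P3L7 and 0 to 1 lower at C28P3L7T3. Mean differences ranged from 0.279 to 0.391 (Col-0) and 0.259 to 0.380 (N14) for the PETE ratio and from -0.137 to -0.037 for PSBO in N14. Calls of single members were lost 24 times and gained 4 times in such fits.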
